A study of Bos taurus with 12 samples.

Results

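Of 33714 mRNA rows in bovine intramuscular preadipocytes followed through differentiation, 109 were low at 3 d and high before and after it. The members were selected on their measured values: the lowest FPKM (fragment density scaled to transcript length and library size) among the 9 libraries of 0, 6 and 9 d had to be at least 5, and at least 4 times the highest FPKM of the 3 libraries of 3 d. The low values at 3 d, and a return above 4 times them at 6 and 9 d, are therefore the selection itself and are described with no test. Among the members are tenascin-C (TNC), 4 members of the CCN family of secreted matrix proteins, smooth muscle actins and calponins, lysyl oxidase-like 4, periostin and integrin subunits. Follistatin, cyclin D1 and a pair of TNF-family ligands are members too.

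By the paper's methods the preadipocytes are from newborn Qinchuan cattle (longissimus dorsi), and the sample labels call the cells intramuscular adipocytes from intramuscular fat. Cells at 90% confluence were the uninduced group (0 d), and the others were taken 3, 6 and 9 d after the start of induction, with 3 libraries a day and 12 in all. Per the labels, induction lasted 48 hours in complete medium with dexamethasone (a glucocorticoid), 0.5 mM IBMX (a phosphodiesterase inhibitor that raises cAMP) and 5 µg/mL insulin, and insulin alone followed, so that the 3 d libraries were taken 1 day after the mixture was removed. The labels print the dexamethasone dose as 1 g/mL and the paper's methods give other doses of dexamethasone and insulin. All groups share the breed, the muscle and the basal medium, and no group was cultured to 3, 6 or 9 d without the mixture, so that days in culture and induction cannot be told apart. The labels do not say whether the replicates are separate cultures, and the paper calls them biological replicates, so the p-values measure the spread between these libraries.

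Preadipocytes are fibroblast-like cells that turn into fat cells when glucocorticoid, cAMP and insulin signals act together, and they round up and loosen their hold on the matrix as they do so. Stretched cells on a stiff matrix carry actin stress fibres and focal adhesions, and the transcription factors SRF (through its coactivators MRTF and myocardin) and YAP with TEAD read that state and drive genes such as CTGF, ACTA2 and TAGLN. TGF-beta feeds the same genes, which are best known from myofibroblasts, the contractile fibroblasts of wounds and scars. Follistatin and its relative FSTL3 bind activin and myostatin and keep them from their receptors.

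Summed FPKM was alike between libraries, but FPKM are scaled to library size, so this does not show a common scale. The median ratio of a library to the mean library, used later for rescaling, differed more by day. It ran from 0.929 in replicate 2 of 9 d to 1.126 in replicate 2 of 0 d. Summed FPKM over all mRNA rows was lowest in a 3 d library (1221194) and highest in a 9 d library (1371794), with 1298928 to 1319454 FPKM on day 0 and 1292029 to 1320282 FPKM on day 6. FPKM hold no counts, so the number of reads behind a single value is not given, while the paper reports the range of valid reads per sample. Across all tested mRNAs the correlation between libraries of a day was 0.978 to 0.983 and between days 0.912 to 0.974.

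The members are 1.66% of the 6556 mRNAs with at least 5 FPKM in the 9 libraries. Per library they summed to 23555 to 26179 FPKM on day 0, 1368 to 1440.0 FPKM on day 3, 25093 to 25798 FPKM on day 6 and 24075 to 25584 FPKM on day 9. As a share of the library's summed FPKM this was 1.79 to 2.02% on day 0, 0.112 to 0.113% on day 3, 1.94 to 1.97% on day 6 and 1.80 to 1.87% on day 9. The low share at 3 d and a higher one on the other days follow from the rule, and only how close the days 0, 6 and 9 lie to each other does not. That closeness is of sums, in which moves of single members offset each other. From 0 to 6 d the mean of ACTG2 went from 194 to 1430 FPKM and that of NOV from 1362 to 594 FPKM. At 6 d 26 members were under 50% of their 0 d mean and 8 over 200%. In bulk RNA, fewer cells of a type and less RNA per cell cannot be told apart.

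Levels spanned a wide range within the set. The mean of a member ran from 5.61 to 3957 FPKM on day 0 (median 51.5), from 0.15 to 170.0 FPKM on day 3 (median 3.28), from 5.31 to 5473 FPKM on day 6 (median 37.9) and from 6.04 to 4856 FPKM on day 9 (median 39.0). Over the 9 libraries of the other days, 28 of the 109 members averaged at least 100 FPKM, while 8 averaged under 10 FPKM. The lowest of those 9 values was 4.05 to 61.1 times the highest 3 d value, with a median of 5.76. It was at least 8 times in 34 members, at least 20 times in 11 and at least 40 times in 5, which were TNC, KIAA0040, LOXL4, EMP3 and FST. Relative spread between the libraries of a day was similar on the high days (median coefficient of variation over members 6.35% at 0 d, 5.89% at 6 d and 6.18% at 9 d) and 11.5% at 3 d, where values were small. WISP2 is the only member listed at 0 in any 3 d library.

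**Figure D1:**
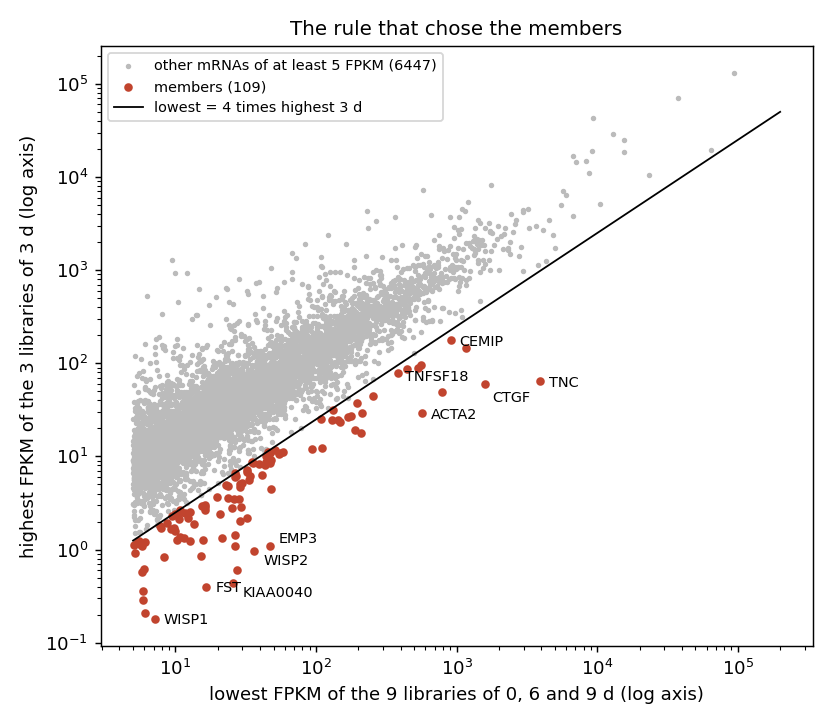
Each point is an mRNA with at least 5 FPKM in the 9 libraries of 0, 6 and 9 d (6556 in all): the lowest of those 9 values across (FPKM, log axis) against the highest of the 3 values of 3 d (FPKM, log axis). Red points are the 109 members, which lie under the line where the lowest of the 9 values is 4 times the highest 3 d value, and TNC lies farthest to the right among them.

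Near the ratio threshold the choice is narrow. Just inside it were SLC4A3 at 4.05 times, PLS3 at 4.06, GNAT1 at 4.06 and PLXNC1 at 4.10, and just outside were ACTN1 at 3.99, LOC112447824 at 3.98, HCRTR1 at 3.97 and NOTCH3 at 3.94. Just inside the level threshold were CCDC69 with a lowest value of 5.04 FPKM, RASIP1 with 5.14, LOC101907803 with 5.36 and TOM1L1 with 5.54. Just outside it were SLC17A9 with 4.83 FPKM, LMOD1 with 4.80, SEMA5B with 4.73 and MEGF6 with 4.70. LMOD1, a smooth muscle protein that seeds actin filaments, had a ratio of 12.3 and missed on one 9 d library alone.

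In 4 members a library of 0, 6 or 9 d stood more than 2 times away from both others of its day. TNFSF18 was at 781 FPKM in replicate 3 of 0 d against 3855 and 3881 in the others, and PCYT1A at 560.1 FPKM in replicate 1 of 0 d against 1402 and 1232. At 6 d, TIMP3 was at 29.2 FPKM in replicate 2 against 77.7 and 89.2, and C23H6orf132 at 5.6 FPKM in replicate 1 against 12.1 and 11.7. No library stood apart in more than 1 member.

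The culture had the markers of fibroblasts on every day. Of 12 fibroblast and preadipocyte markers, 9 or 10 were above 1 FPKM in each library, and COL3A1 was the most abundant. They summed to 150552 to 159779 FPKM on day 0, 181260 to 190049 FPKM on day 3, 169137 to 172328 FPKM on day 6 and 249118 to 264063 FPKM on day 9. None of the 12 is a member, and over the 10 above 1 FPKM at 0 d the median 3 d level equalled that of 0 d. That median covers moves both ways. COL3A1 was at 102820 to 109333 FPKM at 0 d and 123034 to 129901 FPKM at 3 d. The highest 3 d value of PDGFRA was 963 FPKM, against a lowest of 148 FPKM on the other days. COL1A1, given with the collagen chains, was lower at 3 d than at 0 d. Of 8 adipocyte markers none is a member either. They summed to 53.9 to 62.0 FPKM at 0 d, 177 to 182.5 FPKM at 3 d, 90.8 to 103 FPKM at 6 d and 76.4 to 92.5 FPKM at 9 d, and FABP4 was the most abundant at 3 d.

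Markers of smooth muscle and pericytes include 3 members (ACTA2, CNN1 and CSPG4), whose low at 3 d the rule sets. The 9 markers summed to 2306 to 2498 FPKM at 0 d, 225 to 246 FPKM at 3 d, 1970.0 to 2103 FPKM at 6 d and 892 to 968 FPKM at 9 d. ACTA2 was the most abundant at 0, 6 and 9 d and DES at 3 d. The 6 that are not members summed to 453.5 to 498 FPKM at 0 d, 189 to 207 FPKM at 3 d, 369.1 to 390.4 FPKM at 6 d and 231 to 267 FPKM at 9 d, most of it DES, which skeletal muscle shares. Without DES too, the sums were 77.7 to 84.1 FPKM at 0 d, 55.5 to 64.2 FPKM at 3 d, 58.9 to 76.8 FPKM at 6 d and 25.9 to 50.5 FPKM at 9 d. Over the 4 of the 6 above 1 FPKM at 0 d, the median 3 d level was 21.4% of the 0 d level. RGS5, which marks pericytes, was at 0 in each library of 0 and 3 d. MYH11, the smooth muscle myosin, had 23.7, 26.3 and 19.8 FPKM at 0 d, 60.6, 59.7 and 51.2 FPKM at 3 d, 44.6, 27.6 and 29.4 FPKM at 6 d and 28.3, 3.82 and 29.7 FPKM at 9 d, so that it was highest at 3 d. It made up most of the 3 d sums without DES. NOTCH3 and LMOD1, also among the 6, went the other way. NOTCH3 had 46.5, 47.4 and 46.0 FPKM at 0 d and 3.35, 3.58 and 3.83 FPKM at 3 d. LMOD1 had 11.3, 10.4 and 11.9 FPKM at 0 d and 0.2, 0.33 and 0.39 FPKM at 3 d. Skeletal muscle markers (9 found, all above 1 FPKM at 0 d, DES the most abundant) summed to 901 to 1021 FPKM at 0 d, 301 to 338 FPKM at 3 d, 407 to 450.3 FPKM at 6 d and 317 to 355 FPKM at 9 d. The part of these cell types in the result was not tested. Endothelial markers summed to at most 3.74 FPKM and blood and immune markers to at most 5.94 FPKM in a library, with PTPRC and HBB at 0 in each of the 12. Of the cartilage and tendon markers only MKX was above 30 FPKM, at 34.0 to 36.8 FPKM at 0 d, 2.02 to 4.51 FPKM at 3 d, 17.4 to 26.3 FPKM at 6 d and 35.0 to 40.1 FPKM at 9 d, with HAPLN1 and COL9A1 at 0 in each 0 d library. Of the Schwann and neural markers NCAM1 was the most abundant, at 209.8 to 253 FPKM at 0 d, 59.0 to 110.4 FPKM at 3 d, 224 to 311 FPKM at 6 d and 95.5 to 118 FPKM at 9 d. The 8 markers of that list summed to 329 to 372 FPKM at 0 d, 81.5 to 131 FPKM at 3 d, 259 to 347 FPKM at 6 d and 173 to 208 FPKM at 9 d, so that they too were lowest at 3 d.

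TNC, a large glycoprotein laid down around migrating cells, was both the most abundant member and the one with the largest ratio. It had 3911, 3980.2 and 3980.0 FPKM at 0 d, 54.1, 62.3 and 63.96 FPKM at 3 d, 5625, 5663 and 5131 FPKM at 6 d and 5088, 4510.0 and 4969 FPKM at 9 d. The 3 d mean was 1.52% of the 0 d mean, and the 6 and 9 d libraries all lay above those of 0 d. On the log2 scale 6 d differed from 0 d by 0.47 and 9 d by 0.29, under the threshold of 1 for a call. It is 1 of 2 members among 69 matrix glycoproteins and proteoglycans, with FBLN5 (fibulin-5, an organiser of elastic fibres) at 99.03, 137 and 119.6 FPKM at 0 d, 10.9, 11.03 and 9.44 FPKM at 3 d, 58.1, 45.5 and 49.4 FPKM at 6 d and 91.8, 90.8 and 97.3 FPKM at 9 d. FBLN5 fell at 6 d against 0 d (log2 difference -1.21, SE 0.13, limma adjusted p = 4.56e-05), lower in 3 of 3 libraries, and at 9 d the difference from 0 d was -0.33. In that list of 59 tested genes, 16 rose and 14 fell at 6 d against 0 d, beside 3.39% risen and 7.97% fallen over all tested mRNAs. Among the risen was THBS1 (thrombospondin-1), which had 3881, 3823 and 3764 FPKM at 0 d, 964, 1060.5 and 1124 FPKM at 3 d, 14184, 13981 and 14436 FPKM at 6 d and 13047, 13239 and 12021 FPKM at 9 d. At 9 d against 0 d 11 of the 59 rose and 13 fell, and after rescaling 13 of 58 rose and 8 fell. From 6 to 9 d 6 rose and 6 fell. Over all tested mRNAs 3.41% rose and 7.47% fell at 9 d against 0 d, and 2.55% and 1.89% from 6 to 9 d.

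The CCN family was the list with the largest share of members, 4 of 6 genes found. CTGF had 2500.4, 2345 and 2463 FPKM at 0 d, 54.4, 54.97 and 59.9 FPKM at 3 d, 1581, 1696 and 1769 FPKM at 6 d and 1842, 1999 and 1880.0 FPKM at 9 d. NOV had 1392, 1314 and 1379 FPKM at 0 d, 80.1, 86.8 and 88.6 FPKM at 3 d, 592, 568 and 624 FPKM at 6 d and 529, 536 and 615 FPKM at 9 d. Both lost more than 90% of their level at 3 d, and at 9 d CTGF stood at 78.3% and NOV at 41.1% of the 0 d mean. NOV was lower than at 0 d in 3 of 3 libraries of 6 d (log2 difference -1.20, SE 0.07, limma adjusted p = 6.76e-07) and of 9 d (log2 difference -1.28, SE 0.07, limma adjusted p = 5.65e-07). WISP1 was scarce throughout and had 9.93, 8.71 and 9.77 FPKM at 0 d, 0.14, 0.18 and 0.13 FPKM at 3 d, 7.12, 7.3 and 7.69 FPKM at 6 d and 13.03, 14.1 and 11.8 FPKM at 9 d. WISP2, which lacks the C-terminal module of its relatives, had 325, 334 and 345 FPKM at 0 d, 0.97, 0 and 0 FPKM at 3 d, 40.4, 36.4 and 42.5 FPKM at 6 d and 247, 262 and 254 FPKM at 9 d.

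WISP2 was thus near or at 0 in each 3 d library, and at 6 d stood at 11.9% of its 0 d mean. It was lower at 6 d than at 0 d in 3 of 3 libraries (log2 difference -3.07, SE 0.73, limma adjusted p = 0.00853) and higher at 9 d than at 6 d in 3 of 3 (log2 difference 2.68, SE 0.73, limma adjusted p = 0.028). The large SE comes with its 3 d values of 0.97, 0 and 0 FPKM, since the fit shares one spread over the 4 days. With a pseudocount of 0.01 the differences were -3.08 and 2.68, and the adjusted p from limma was 0.129 and 0.234. Without any one library of 6 or 9 d the second difference was 2.62 to 2.73, and its limma adjusted p lay between 0.0659 and 0.0774. The fifth expressed gene of the family, CYR61 (CCN1), is not a member. It had 342, 345 and 356 FPKM at 0 d, 162, 184 and 197 FPKM at 3 d, 572, 639 and 629 FPKM at 6 d and 364, 359 and 325 FPKM at 9 d. CYR61 kept 52.0% of its 0 d mean at 3 d. Of 6 tested, 2 fell at 6 d (NOV, WISP2), 1 fell at 9 d (NOV) and 1 rose from 6 to 9 d (WISP2), with list medians of -0.45, -0.37 and 0.05 beside -0.15, -0.19 and -0.04 over all tested mRNAs. Of all of these, 3.39% rose and 7.97% fell at 6 d, 3.41% and 7.47% at 9 d against 0 d and 2.55% and 1.89% from 6 to 9 d.

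**Figure D2:**
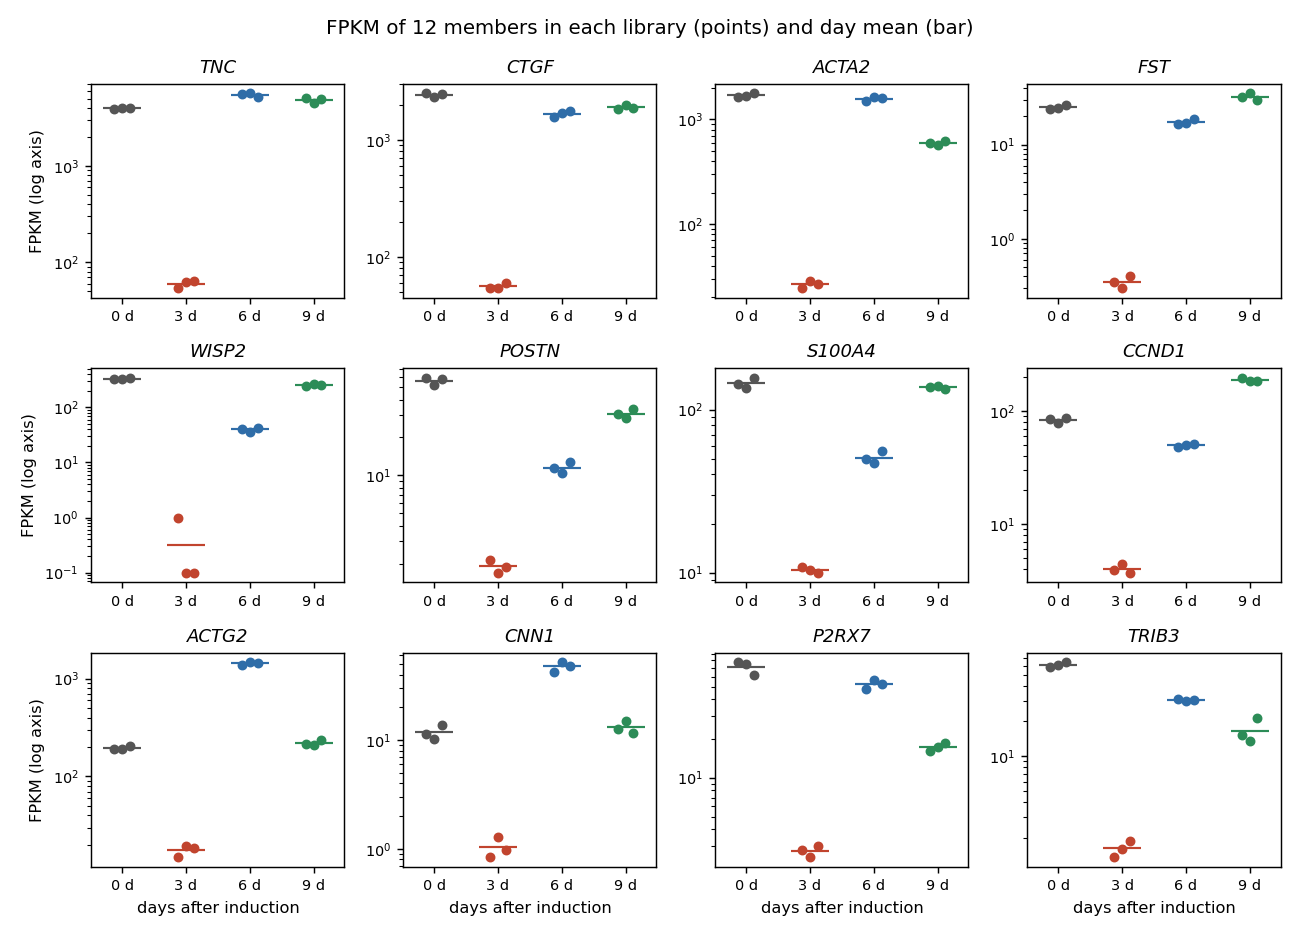
FPKM (log axis, each panel with its own range) of 12 members in each of the 12 libraries by day after induction. Points are libraries and bars the mean of the 3 libraries of a day. Values of 0 are drawn at 0.1, which applies to WISP2 at 3 d, and in each panel the 3 d points lie lowest.

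Enzymes and structural proteins of the matrix gave a mixed course after 3 d. LOXL4, which crosslinks collagen and elastin, had 64.1, 63.5 and 66.3 FPKM at 0 d, 0.54, 0.5 and 0.61 FPKM at 3 d, 39.05, 37.4 and 37.5 FPKM at 6 d and 29.2, 27.6 and 30.1 FPKM at 9 d. It fell at 9 d against 0 d (log2 difference -1.16, SE 0.07, limma adjusted p = 1.47e-06), with 3 of 3 libraries lower, and after rescaling of the libraries the difference was -0.95 and no longer a call. POSTN (periostin), a collagen-binding protein that TGF-beta induces, had 59.4, 52.3 and 58.1 FPKM at 0 d, 2.13, 1.7 and 1.88 FPKM at 3 d, 11.4, 10.5 and 12.7 FPKM at 6 d and 30.7, 28.5 and 33.8 FPKM at 9 d. It was lower at 6 d than at 0 d in 3 of 3 libraries (log2 difference -2.29, SE 0.11, limma adjusted p = 1.78e-07) and then rose again at 9 d (log2 difference 1.42, SE 0.11, limma adjusted p = 1.47e-05). Its 6 d level was thus between those of 3 and 9 d, with no overlap between days. MXRA5, a secreted matrix protein, went the other way with 22.1, 20.8 and 24.9 FPKM at 0 d, 1.66, 2.39 and 2.3 FPKM at 3 d, 77.3, 72.8 and 65.9 FPKM at 6 d and 77.1, 71.3 and 88.7 FPKM at 9 d. It rose at 6 d (log2 difference 1.67, SE 0.14, limma adjusted p = 1.07e-05) and at 9 d (log2 difference 1.80, SE 0.14, limma adjusted p = 7.38e-06) against 0 d, in 3 of 3 libraries each.

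Collagen chains were few among the members. COL11A1, a minor chain of cartilage-type fibrils, had 193, 184 and 168 FPKM at 0 d, 23.1, 26.4 and 24.4 FPKM at 3 d, 215, 178 and 209 FPKM at 6 d and 277, 285 and 276 FPKM at 9 d, and COL16A1, a fibril-associated chain, had 54.95, 54.2 and 55.7 FPKM at 0 d, 8.97, 9.26 and 9.04 FPKM at 3 d, 49.4, 47.7 and 50.7 FPKM at 6 d and 94.5, 85.00 and 85.8 FPKM at 9 d. Neither was called between 0, 6 and 9 d. They are 1 of 29 and 1 of 30 genes of their lists (LOXL4 being the other member of the first), and the abundant chains stayed outside the set: COL1A1 had a mean of 3018 FPKM at 0 d and 941 FPKM at 3 d, and COL3A1 of 105843 and 126606 FPKM. TIMP3, the metalloproteinase inhibitor that binds to the matrix, had 138, 105 and 137 FPKM at 0 d, 2.87, 2.48 and 2.41 FPKM at 3 d, 77.7, 29.2 and 89.2 FPKM at 6 d and 59.2, 46.1 and 52.7 FPKM at 9 d. It was called lower at 6 d (log2 difference -1.09, SE 0.35, limma adjusted p = 0.0338) and at 9 d (log2 difference -1.26, SE 0.35, limma adjusted p = 0.0172). Both calls were lost without single libraries. The first was -0.92 after rescaling, and in a fit of only the 6 libraries it was -1.09 with a limma adjusted p of 0.117. Without replicate 2 of 6 d the first was -0.59. Without replicate 1 or 3 of 0 d it was -1.03 in each case, with limma adjusted p of 0.0942 and 0.0876. Without replicate 2 of 9 d or replicate 1 or 3 of 0 d the second was -1.17, -1.19 and -1.2, near the full -1.26. Its limma adjusted p was then 0.0579, 0.0544 and 0.0514.

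Of genes that act on hyaluronan, for which there was no fixed list, a degrading factor and a receptor are members. The synthase HAS2 is not a member, and its highest 3 d value (143.75 FPKM) lay above its lowest value on the other days (15.46 FPKM). CEMIP, which fibroblasts need to break hyaluronan down, had 1206, 1257 and 1214 FPKM at 0 d, 163, 177 and 169.6 FPKM at 3 d, 946, 936 and 908 FPKM at 6 d and 1323, 1253 and 1219 FPKM at 9 d. CD44, the surface receptor for hyaluronan, had 53.8, 53.5 and 58.8 FPKM at 0 d, 5.91, 6.3 and 7.16 FPKM at 3 d, 32.4, 34.4 and 35.5 FPKM at 6 d and 46.4, 46.3 and 48.3 FPKM at 9 d. Both were lowest at 3 d in every library and neither was called between the other days. Of the genes for heparan sulfate, HS3ST2, a sulfotransferase, had 13.5, 12.1 and 11.6 FPKM at 0 d, 2.05, 2.23 and 2.5 FPKM at 3 d, 14.7, 15.4 and 14.2 FPKM at 6 d and 27.9, 27.97 and 25.1 FPKM at 9 d and rose at 9 d against 0 d (log2 difference 1.11, SE 0.09, limma adjusted p = 9.14e-06).

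Contractile genes made up the largest group, 7 of 34 in the list of contractile genes and SRF targets. ACTA2, smooth muscle alpha-actin and the usual mark of a myofibroblast, had 1642, 1674 and 1776 FPKM at 0 d, 24.6, 28.9 and 26.9 FPKM at 3 d, 1504, 1629 and 1617 FPKM at 6 d and 596, 568 and 629 FPKM at 9 d. ACTG2, the actin of visceral smooth muscle, had 189, 191 and 203 FPKM at 0 d, 15.00, 19.2 and 18.6 FPKM at 3 d, 1370.0, 1468 and 1453 FPKM at 6 d and 214, 208 and 236 FPKM at 9 d. ACTA2 was back near its 0 d level at 6 d and dropped after that, whereas ACTG2 at 6 d stood at 737% of its 0 d mean and at 9 d was back near it. ACTA2 fell from 6 to 9 d (log2 difference -1.41, SE 0.07, limma adjusted p = 1.04e-06) and was lower at 9 d than at 0 d (log2 difference -1.51, SE 0.07, limma adjusted p = 1.9e-07). ACTG2 rose at 6 d against 0 d (log2 difference 2.88, SE 0.09, limma adjusted p = 1.67e-08) and fell from 6 to 9 d (log2 difference -2.71, SE 0.09, limma adjusted p = 1.52e-07), each in 3 of 3 libraries.

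Calponin 1 and transgelin, which bind actin in smooth muscle, were highest at 6 d as well. CNN1 had 11.5, 10.2 and 13.7 FPKM at 0 d, 0.84, 1.28 and 0.97 FPKM at 3 d, 42.3, 51.9 and 48.3 FPKM at 6 d and 12.7, 14.9 and 11.7 FPKM at 9 d. TAGLN had 215, 211 and 245 FPKM at 0 d, 18.1, 23.3 and 21.8 FPKM at 3 d, 429, 456 and 459 FPKM at 6 d and 149, 149 and 154 FPKM at 9 d. CNN1 rose at 6 d (log2 difference 2.0, SE 0.16, limma adjusted p = 7.9e-06) and fell at 9 d against 6 d (log2 difference -1.85, SE 0.16, limma adjusted p = 3.73e-05). TAGLN fell from 6 to 9 d (log2 difference -1.57, SE 0.09, limma adjusted p = 2.97e-06), and its rise at 6 d lay at the threshold of 1 (log2 difference 1.00) and was not called without any one of replicates 1 and 2 of 0 d and 2 and 3 of 6 d, at 0.96 to 0.99. CNN2, calponin 2, had means of 143, 11.7, 129.5 and 118 FPKM on the 4 days. MYL9, the regulatory light chain of smooth muscle myosin, had means of 17.2, 1.47, 19.9 and 10.8 FPKM. CSRP2, a LIM protein of smooth muscle, had means of 24.4, 3.79, 36.3 and 35.4 FPKM. None of these last members was called between 0, 6 and 9 d.

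Of the 32 contractile genes tested, 5 rose at 6 d against 0 d (ACTG2, CNN1, SMTN, TAGLN and VCL) and 1 fell (KCNMB1), while at 9 d against 0 d none rose and 6 fell. From 6 to 9 d none rose and 9 fell, 4 of them members. The list's medians were 0.13, -0.52 and -0.65 beside -0.15, -0.19 and -0.04 over all tested mRNAs. Of all of these, 3.39% rose and 7.97% fell at 6 d, 3.41% and 7.47% at 9 d against 0 d and 2.55% and 1.89% from 6 to 9 d. After rescaling of the libraries, of 33 tested 7 rose and 1 fell at 6 d, 1 rose and 4 fell at 9 d against 0 d, and none rose and 9 fell from 6 to 9 d. The 3 d level of the 32 genes above 1 FPKM at 0 d had a median of 31.3% of the 0 d level, and that of the 25 that are not members 35.1%. VCL (vinculin, which links actin to integrins), outside the set, had 199.98, 208 and 199 FPKM at 0 d, 62.6, 71.8 and 70.2 FPKM at 3 d, 432, 458 and 447 FPKM at 6 d and 303, 274 and 289 FPKM at 9 d.

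A pair of genes of striated muscle belongs to the set. MYL2, the regulatory light chain of slow and cardiac muscle, had 37.3, 36.05 and 40.6 FPKM at 0 d, 1.05, 1.2 and 1.24 FPKM at 3 d, 13.4, 13.4 and 13.2 FPKM at 6 d and 12.6, 13.01 and 13.9 FPKM at 9 d. MYH7, the slow myosin heavy chain, had 74.4, 74.1 and 76.5 FPKM at 0 d, 2.91, 3.35 and 3.67 FPKM at 3 d, 22.7, 22.1 and 19.9 FPKM at 6 d and 25.9, 25.3 and 24.9 FPKM at 9 d. Both were lower at 6 and 9 d than at 0 d in every library, at 28.8 and 33.8% of the 0 d mean for MYH7. MYH7 fell at 6 d (log2 difference -1.80, SE 0.09, limma adjusted p = 1.83e-07) and 9 d (log2 difference -1.56, SE 0.09, limma adjusted p = 6.71e-07), as did MYL2 (-1.50 and -1.52 on the log2 scale). Of 51 sarcomere and myogenic genes tested, 40 fell and none rose at 6 d against 0 d, with the same counts at 9 d, and the list's medians were -1.68 and -1.65. Over all tested mRNAs the shares risen and fallen were 3.39% and 7.97% for 6 d against 0 d and 3.41% and 7.47% for 9 d against 0 d. From 6 to 9 d, 1 rose and 1 fell. The skeletal muscle markers, whose sums are given with the cell type markers, share genes with this list (ACTA1, CKM, MYH3, MYLPF, MYOD1, MYOG and TNNT3). That they moved with it is therefore no separate observation, and their part in it was not tested.

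Integrins and other adhesion receptors supplied 4 members of 47 genes. ITGB3, which pairs with the alpha V chain to bind fibronectin and vitronectin, had 215, 205 and 200.16 FPKM at 0 d, 22.00, 24.5 and 23.99 FPKM at 3 d, 202, 191 and 191 FPKM at 6 d and 135, 129 and 142 FPKM at 9 d. ITGA11, a collagen-binding alpha chain, had 21.4, 21.6 and 25.2 FPKM at 0 d, 1.05, 0.77 and 1.34 FPKM at 3 d, 40.9, 39.7 and 38.3 FPKM at 6 d and 49.1, 47.5 and 45.4 FPKM at 9 d. ITGA11 was higher than at 0 d in 3 of 3 libraries of 6 d and of 9 d, and the second passed the test (log2 difference 1.06, SE 0.15, limma adjusted p = 0.00045). ITGA1, a further collagen-binding alpha chain whose row is joined with PELO, had 229.8, 257 and 209.9 FPKM at 0 d, 36.9, 36.95 and 37.9 FPKM at 3 d, 264, 196 and 215 FPKM at 6 d and 219.8, 285 and 251 FPKM at 9 d. CDH13 (T-cadherin, which also binds adiponectin) had 211, 208 and 218 FPKM at 0 d, 27.1, 31.7 and 30.6 FPKM at 3 d, 142, 132 and 145 FPKM at 6 d and 236, 225 and 225 FPKM at 9 d. No day of 0, 6 and 9 d stood out for ITGA1 with PELO, whose libraries overlapped. Of 40 adhesion genes tested, 6 rose and 14 fell at 6 d, 6 rose and 11 fell at 9 d against 0 d, and 3 rose and 5 fell from 6 to 9 d. The same shares over all tested mRNAs were 3.39% and 7.97% for 6 d against 0 d, 3.41% and 7.47% for 9 d against 0 d and 2.55% and 1.89% for 9 d against 6 d. ITGA4, outside the set because its 6 d values were too low, had 18.2, 15.5 and 14.01 FPKM at 0 d, 1.81, 1.08 and 1.4 FPKM at 3 d, 2.89, 3.46 and 2.65 FPKM at 6 d and 23.2, 26.2 and 22.1 FPKM at 9 d.

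Among secreted ligands and their antagonists, follistatin had one of the largest ratios. FST had 24.04, 24.7 and 26.6 FPKM at 0 d, 0.35, 0.3 and 0.4 FPKM at 3 d, 16.6, 17.1 and 18.6 FPKM at 6 d and 32.1, 35.05 and 30.04 FPKM at 9 d. Its relative FSTL3 had 55.8, 56.9 and 56.6 FPKM at 0 d, 9.61, 10.8 and 10.7 FPKM at 3 d, 57.98, 63.7 and 58.8 FPKM at 6 d and 69.3, 60.8 and 62.6 FPKM at 9 d. FST kept 1.39% of its 0 d mean at 3 d and FSTL3 18.4%, and neither was called between the other days. They are the 2 members among 28 BMP, GDF and ID genes. GREM1, a BMP antagonist outside the set, was low at 3 d and had come back only in part at 6 d. It had 30.3, 25.6 and 26.6 FPKM at 0 d, 0.25, 0.27 and 0.25 FPKM at 3 d, 4.92, 4.24 and 2.07 FPKM at 6 d and 36.8, 44.5 and 46.95 FPKM at 9 d. Of 20 tested genes of that list, 2 rose and 7 fell at 6 d, 2 rose and 6 fell at 9 d against 0 d, and 1 rose and 3 fell from 6 to 9 d. Among all mRNAs tested, the shares were 3.39% and 7.97% for 6 d against 0 d, 3.41% and 7.47% for 9 d against 0 d and 2.55% and 1.89% for 9 d against 6 d.

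A pair of growth factors rose late. PDGFC, a ligand of the PDGF alpha receptor, had 50.5, 52.7 and 54.2 FPKM at 0 d, 8.02, 6.32 and 8.62 FPKM at 3 d, 43.8, 44.96 and 44.5 FPKM at 6 d and 108, 112 and 109 FPKM at 9 d. VEGFC, which drives lymphatic vessels, had 47.2, 54.4 and 53.2 FPKM at 0 d, 6.88, 8.54 and 7.43 FPKM at 3 d, 65.4, 68.6 and 72.6 FPKM at 6 d and 121, 126 and 127 FPKM at 9 d. At 9 d all 3 libraries of either gene lay above all others. PDGFC rose at 9 d against 0 d (log2 difference 1.06, SE 0.10, limma adjusted p = 2.23e-05) and against 6 d (log2 difference 1.30, SE 0.10, limma adjusted p = 1.41e-05), and VEGFC against 0 d (log2 difference 1.28, SE 0.09, limma adjusted p = 2.73e-06). Of 37 tested ligands and receptors of the FGF, PDGF, EGF and VEGF families, 10 rose and 7 fell at 9 d against 0 d, and 4 rose and 10 fell at 6 d. Beside this stand, over all tested mRNAs, 3.39% and 7.97% for 6 d against 0 d and 3.41% and 7.47% for 9 d against 0 d. IGFBP6, a binding protein that prefers IGF2, had 65.3, 53.3 and 58.9 FPKM at 0 d, 4.27, 5.02 and 4.57 FPKM at 3 d, 30.5, 28.9 and 31.1 FPKM at 6 d and 62.98, 57.02 and 56.97 FPKM at 9 d. It was in the middle at 6 d, and at -0.97 the difference from 0 d was just under the size of a call.

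TNF-family ligands included a very abundant row. TNFSF18, the ligand of GITR, had 3855, 3881 and 781 FPKM at 0 d, 43.1, 49.4 and 31.02 FPKM at 3 d, 3316, 3221 and 3550.1 FPKM at 6 d and 3935, 3987 and 4756 FPKM at 9 d. TNFSF4, the ligand of OX40 and a neighbour of TNFSF18 in the genome with one gene between them, had 21.04, 17.3 and 15.3 FPKM at 0 d, 0.65, 0.86 and 0.81 FPKM at 3 d, 39.2, 32.6 and 37.9 FPKM at 6 d and 22.6, 31.3 and 23.9 FPKM at 9 d. The 3 d values of TNFSF18 lay far under the single low library of 0 d, whose distance from its day was given with the libraries that stand apart. TNFSF4 rose at 6 d against 0 d (log2 difference 1.04, SE 0.16, limma adjusted p = 0.00067), but without replicate 3 of 0 d the difference was 0.93 and without replicate 1 of 6 d 0.98, neither a call. With a pseudocount of 1 that call was lost too. The death receptor FAS, in a row joined with a pair of uncharacterised loci, had 53.9, 48.3 and 52.2 FPKM at 0 d, 1.01, 0.99 and 3.45 FPKM at 3 d, 31.1, 25.9 and 27.8 FPKM at 6 d and 55.3, 56.9 and 60.9 FPKM at 9 d, and TNFRSF12A, the receptor of TWEAK, had 31.6, 28.9 and 36.3 FPKM at 0 d, 3.76, 4.39 and 4.71 FPKM at 3 d, 29.2, 32.4 and 35.5 FPKM at 6 d and 32.9, 36.7 and 33.99 FPKM at 9 d. Neither receptor was called between 0, 6 and 9 d.

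Semaphorin 3C (SEMA3C), a secreted guidance signal, had 108, 102 and 96.8 FPKM at 0 d, 6.07, 5.79 and 6.09 FPKM at 3 d, 27.4, 26.7 and 29.6 FPKM at 6 d and 45.7, 48.2 and 54.4 FPKM at 9 d. It was lower than at 0 d at 6 d (log2 difference -1.87, SE 0.08, limma adjusted p = 8.24e-08) and at 9 d (log2 difference -1.05, SE 0.08, limma adjusted p = 4.8e-06), in 3 of 3 libraries each. After rescaling, the second difference was -0.84, and without replicate 1 of 9 d it was -0.99, neither a call. PLXNC1, a plexin receptor at the edge of the ratio threshold, fell at 6 d with 10.2, 9.69 and 9.42 FPKM at 6 d beside 20.2, 20.8 and 19.2 FPKM at 0 d (log2 difference -1.03, SE 0.11, limma adjusted p = 6.07e-05), and after rescaling the difference was -0.86 and with a pseudocount of 1 -0.97, neither a call. Of 45 tested guidance and ephrin genes, 2 rose and 19 fell at 6 d, 4 rose and 14 fell at 9 d against 0 d, and 8 rose and none fell from 6 to 9 d. Over all tested mRNAs the shares risen and fallen were 3.39% and 7.97% for 6 d against 0 d, 3.41% and 7.47% for 9 d against 0 d and 2.55% and 1.89% for 9 d against 6 d.

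Receptors and surface proteins had differing courses. AXL, a receptor tyrosine kinase for GAS6 and a YAP target, had 184, 178 and 186 FPKM at 0 d, 7.1, 12.1 and 8.12 FPKM at 3 d, 94.1, 104 and 100.6 FPKM at 6 d and 111, 115 and 115 FPKM at 9 d. TYRO3, which shares that ligand, had 112, 110.4 and 174 FPKM at 0 d, 5.99, 5.33 and 6.85 FPKM at 3 d, 46.6, 48.9 and 43.97 FPKM at 6 d and 34.1, 32.3 and 50.4 FPKM at 9 d. AXL was not called between the other days, and TYRO3 fell at 6 d (log2 difference -1.47, SE 0.21, limma adjusted p = 0.00034) and 9 d (log2 difference -1.75, SE 0.21, limma adjusted p = 0.000119) against 0 d. CSPG4 (NG2), a proteoglycan of pericytes and progenitors, had 199.57, 193 and 211 FPKM at 0 d, 10.2, 8.68 and 7.29 FPKM at 3 d, 44.2, 49.8 and 47.3 FPKM at 6 d and 90.3, 78.3 and 79.1 FPKM at 9 d. It fell at 6 d (log2 difference -2.09, SE 0.11, limma adjusted p = 4.28e-07) and 9 d (log2 difference -1.28, SE 0.11, limma adjusted p = 1.57e-05). NPR3, the receptor that clears natriuretic peptides, had 490.0, 492 and 487 FPKM at 0 d, 24.4, 24.8 and 23.8 FPKM at 3 d, 143, 168 and 143 FPKM at 6 d and 226, 220.1 and 218 FPKM at 9 d, and it too was lower at 6 d (-1.70 on the log2 scale) and 9 d (-1.14, and -0.93 and no longer a call after rescaling). In CSPG4 and NPR3 the days did not overlap and 6 d lay under 9 d.

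Receptors and signal proteins with other courses were P2RX7, TBXA2R, GPR65, RGS3 and GNAT1. P2RX7, the ATP-gated channel, had 77.2, 74.3 and 62.03 FPKM at 0 d, 2.77, 2.45 and 2.98 FPKM at 3 d, 48.3, 56.03 and 52.7 FPKM at 6 d and 16.1, 17.2 and 18.5 FPKM at 9 d. It fell from 6 to 9 d (log2 difference -1.59, SE 0.11, limma adjusted p = 6.65e-06) and was lower at 9 d than at 0 d (log2 difference -2.03, SE 0.11, limma adjusted p = 5.24e-07). TBXA2R, the thromboxane receptor, had 23.6, 23.9 and 24.7 FPKM at 0 d, 0.89, 1.52 and 1.65 FPKM at 3 d, 10.6, 10.1 and 9.27 FPKM at 6 d and 23.8, 24.3 and 25.3 FPKM at 9 d. It fell at 6 d against 0 d (log2 difference -1.26, SE 0.18, limma adjusted p = 0.000342) and rose from 6 to 9 d (log2 difference 1.29, SE 0.18, limma adjusted p = 0.00069), in 3 of 3 libraries each. GPR65, a proton-sensing receptor, had 9.57, 7.02 and 5.93 FPKM at 0 d, 0.1, 0.21 and 0.29 FPKM at 3 d, 21.2, 25.1 and 25.4 FPKM at 6 d and 13.8, 11.8 and 10.7 FPKM at 9 d and rose at 6 d (log2 difference 1.68, SE 0.24, limma adjusted p = 0.000435). RGS3, which shortens G protein signals, had 6.2, 5.8 and 6.7 FPKM at 0 d, 0.35, 0.57 and 0.54 FPKM at 3 d, 9.26, 15.4 and 15.1 FPKM at 6 d and 18.1, 18.3 and 17.3 FPKM at 9 d. It rose at 9 d (log2 difference 1.51, SE 0.20, limma adjusted p = 0.00028), and its rise at 6 d (1.04 on the log2 scale) was 0.99 without replicate 2 of 0 d, 0.91 and 0.93 without replicate 2 or 3 of 6 d, 0.95 with a pseudocount of 1, and no longer a call. GNAT1, the alpha subunit of rod transducin, had 77.8, 95.05 and 85.7 FPKM at 0 d, 3.07, 6.57 and 6.09 FPKM at 3 d, 42.5, 35.8 and 35.3 FPKM at 6 d and 28.5, 26.7 and 27.4 FPKM at 9 d and fell at 6 d (log2 difference -1.18, SE 0.24, limma adjusted p = 0.00315) and 9 d (log2 difference -1.64, SE 0.24, limma adjusted p = 0.000434).

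CCND1 (cyclin D1), which carries growth signals into the cell cycle, was the only member among 47 cell cycle genes. It had 85.7, 79.2 and 87.5 FPKM at 0 d, 3.94, 4.42 and 3.73 FPKM at 3 d, 47.8, 50.1 and 51.2 FPKM at 6 d and 197, 184 and 183 FPKM at 9 d. At 9 d it lay above every other library and at 6 d between 3 d and 0 d. It rose at 9 d against 0 d (log2 difference 1.16, SE 0.07, limma adjusted p = 1.57e-06) and against 6 d (log2 difference 1.92, SE 0.07, limma adjusted p = 2.52e-07). Among the 47 cell cycle genes tested by limma, none was called at 6 d against 0 d, and CCND1, CDC6 and MCM3 rose and none fell at 9 d against 0 d. The same shares over all tested mRNAs were 3.39% and 7.97% for 6 d against 0 d and 3.41% and 7.47% for 9 d against 0 d. Over the 43 cell cycle genes above 1 FPKM at 0 d the median 3 d level was 120% of the 0 d level.

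Regulators of transcription and signalling followed. DACT1, which binds Dishevelled in the Wnt pathway, had 835, 844 and 806 FPKM at 0 d, 76.5, 87.1 and 83.8 FPKM at 3 d, 441, 446 and 449 FPKM at 6 d and 831, 828 and 789.6 FPKM at 9 d. BHLHE40, a clock-linked repressor, had 667, 483 and 534 FPKM at 0 d, 61.6, 57.2 and 78.9 FPKM at 3 d, 496, 409.8 and 384 FPKM at 6 d and 987, 881 and 847 FPKM at 9 d. DACT1 at 9 d overlapped with 0 d, and BHLHE40 rose from 6 to 9 d (log2 difference 1.08, SE 0.15, limma adjusted p = 0.000859). IER3, an early response gene that protects from apoptosis, had 59.2, 50.99 and 56.6 FPKM at 0 d, 10.4, 11.04 and 11.8 FPKM at 3 d, 66.2, 75.8 and 72.2 FPKM at 6 d and 171, 156 and 149 FPKM at 9 d and rose at 9 d against 0 d (log2 difference 1.51, SE 0.08, limma adjusted p = 6.82e-07) and 6 d (1.15 on the log2 scale). S100A4, a calcium-binding protein of motile fibroblasts, had 144, 135 and 156 FPKM at 0 d, 10.8, 10.4 and 10.02 FPKM at 3 d, 49.7, 46.9 and 55.3 FPKM at 6 d and 137, 140.1 and 133 FPKM at 9 d. Its 9 d values overlapped with those of 0 d, after a fall at 6 d (log2 difference -1.52, SE 0.08, limma adjusted p = 2.47e-07) and a rise from 6 to 9 d (log2 difference 1.43, SE 0.08, limma adjusted p = 1.48e-06).

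A pair of members belongs to the list of the amino acid stress response, which the factor ATF4 drives. TRIB3, a pseudokinase that ATF4 induces, had 57.9, 60.4 and 64.05 FPKM at 0 d, 1.36, 1.6 and 1.87 FPKM at 3 d, 30.7, 30.00 and 30.4 FPKM at 6 d and 15.2, 13.5 and 21.1 FPKM at 9 d. VLDLR, a lipoprotein receptor, had 284, 277 and 269 FPKM at 0 d, 29.3, 27.7 and 28.2 FPKM at 3 d, 216, 212 and 223 FPKM at 6 d and 312, 309 and 328 FPKM at 9 d. TRIB3 fell at 9 d against 0 d (log2 difference -1.89, SE 0.16, limma adjusted p = 1.03e-05), and VLDLR was not called. Over the 22 genes of the list above 1 FPKM at 0 d the median 3 d level was 18.6% of the 0 d level, and over the 20 that are not members 20.3%. ASNS (asparagine synthetase), outside the set, had 258, 246 and 266 FPKM at 0 d, 34.8, 28.7 and 34.00 FPKM at 3 d, 200.14, 212 and 222 FPKM at 6 d and 108, 108 and 126 FPKM at 9 d. At 6 d against 0 d 1 of 23 tested genes rose and 2 fell, and at 9 d against 0 d 1 rose (DDIT4) and 8 fell. Among all mRNAs tested, the shares were 3.39% and 7.97% for 6 d against 0 d and 3.41% and 7.47% for 9 d against 0 d. After rescaling 1 gene of the list rose and 3 fell at 9 d. PYCR1, the last enzyme of proline synthesis, is a member outside the list. It had 1357, 1300.0 and 1497 FPKM at 0 d, 128, 146 and 129 FPKM at 3 d, 2087, 2150.1 and 2205 FPKM at 6 d and 1189.5, 1157 and 1302 FPKM at 9 d and was not called.

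Metabolic enzymes were scattered over several pathways. PCYT1A, which sets the pace of phosphatidylcholine synthesis, had 560.1, 1402 and 1232 FPKM at 0 d, 97.01, 61.3 and 65.2 FPKM at 3 d, 1401, 1781 and 1815 FPKM at 6 d and 1477, 1519.9 and 1488 FPKM at 9 d. CYP3A4, a drug- and steroid-oxidising enzyme, had 52.6, 48.4 and 49.97 FPKM at 0 d, 1.34, 1.11 and 0.98 FPKM at 3 d, 11.6, 11.5 and 13.96 FPKM at 6 d and 71.2, 64.9 and 115 FPKM at 9 d. LIPG (endothelial lipase) had 29.9, 27.7 and 30.2 FPKM at 0 d, 3.59, 3.5 and 3.58 FPKM at 3 d, 70.8, 78.8 and 76.8 FPKM at 6 d and 33.1, 33.8 and 23.7 FPKM at 9 d. PCYT1A was not called, CYP3A4 fell at 6 d against 0 d (log2 difference -2.02, SE 0.20, limma adjusted p = 2.84e-05) and rose from 6 to 9 d (log2 difference 2.71, SE 0.20, limma adjusted p = 1.16e-05), and LIPG rose at 6 d (log2 difference 1.36, SE 0.12, limma adjusted p = 1.52e-05) and fell after it (log2 difference -1.34, SE 0.12, limma adjusted p = 4.69e-05). PRSS23, a secreted serine protease, had 277, 267 and 208 FPKM at 0 d, 16.5, 17.4 and 17.99 FPKM at 3 d, 406, 351 and 378 FPKM at 6 d and 669, 737 and 753 FPKM at 9 d and rose at 9 d against 0 d (log2 difference 1.53, SE 0.11, limma adjusted p = 3.16e-06). ARSI, a sulfatase, had 17.8, 16.3 and 19.2 FPKM at 0 d, 0.19, 0.21 and 0.18 FPKM at 3 d, 9.4, 12.8 and 13.8 FPKM at 6 d and 7.79, 7.48 and 6.06 FPKM at 9 d and fell at 9 d against 0 d (log2 difference -1.32, SE 0.15, limma adjusted p = 9.62e-05).

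Members with large ratios and less familiar roles were KIAA0040, EMP3 and HSPB7. KIAA0040 had 69.7, 66.9 and 71.8 FPKM at 0 d, 0.28, 0.44 and 0.36 FPKM at 3 d, 25.8, 26.4 and 27.6 FPKM at 6 d and 40.8, 42.7 and 42.99 FPKM at 9 d. EMP3, a small membrane protein, had 109, 109.7 and 119 FPKM at 0 d, 1.08, 0.87 and 0.77 FPKM at 3 d, 46.8, 51.7 and 48.8 FPKM at 6 d and 63.1, 54.1 and 69.1 FPKM at 9 d. HSPB7, a small heat shock protein of muscle, had 26.8, 26.9 and 27.7 FPKM at 0 d, 0.57, 0.5 and 1.08 FPKM at 3 d, 43.9, 49.6 and 45.1 FPKM at 6 d and 43.5, 42.01 and 35.6 FPKM at 9 d. The first of these was at 0.518% of its 0 d mean at 3 d and fell at 6 d against 0 d (log2 difference -1.38, SE 0.11, limma adjusted p = 6.54e-06), EMP3 fell at 6 d (log2 difference -1.19, SE 0.12, limma adjusted p = 3.43e-05), and HSPB7 was not called. Members not named here had ratios of at most 18.4 and are counted in the comparisons.

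Lists of TGF-beta and YAP genes held few further members. Of 30 TGF-beta ligands and targets, 5 are members: POSTN, TAGLN and ACTA2, given with their groups, TGFB1I1 (a focal adhesion coactivator) with 43.2, 43.4 and 47.7 FPKM at 0 d, 4.69, 5.04 and 5.17 FPKM at 3 d, 39.6, 41.3 and 40.3 FPKM at 6 d and 32.7, 29.9 and 32.3 FPKM at 9 d, and LRRC32 (which holds latent TGF-beta at the cell surface) with 32.9, 33.2 and 38.96 FPKM at 0 d, 1.69, 2.05 and 1.75 FPKM at 3 d, 32.4, 35.2 and 28.9 FPKM at 6 d and 35.5, 32.1 and 38.9 FPKM at 9 d. Over the 23 of the 30 above 1 FPKM at 0 d the median 3 d level was 74.2% of the 0 d level, and over the 18 that are not members 111%. At 6 d 7 of the 30 rose and 2 fell against 0 d, and at 9 d 3 rose and 3 fell. Beside this stand, over all tested mRNAs, 3.39% and 7.97% for 6 d against 0 d and 3.41% and 7.47% for 9 d against 0 d. After rescaling 6 of the 30 rose and 2 fell at 9 d, and the list's median changed sign (-0.05 to 0.16), so that no direction is given for it. FN1 (fibronectin), a target outside the set, had means of 3398, 2723, 7243 and 6228 FPKM at 0, 3, 6 and 9 d. Of 22 YAP and TEAD targets, CTGF and AXL are members, and the median 3 d level of the 21 above 1 FPKM at 0 d was 52.0% of the 0 d level (52.5% over the 19 that are not members). Of these 22, 4 rose and 3 fell at 6 d against 0 d, and 2 rose and 4 fell at 9 d. Over all tested mRNAs the shares risen and fallen were 3.39% and 7.97% for 6 d against 0 d and 3.41% and 7.47% for 9 d against 0 d.

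Of 25 gene lists, 18 held at least 1 member and 41 members belong to a list. The lists with none were adipocyte genes (38 rows), Wnt pathway (44), Notch and Hedgehog (26), cAMP-induced genes (26), chemokines, cytokines and inflammatory genes (48), interferon-stimulated genes (39) and cholesterol synthesis and uptake (21). Over their genes above 1 FPKM at 0 d the median 3 d level, as a share of 0 d, was 180% for adipocyte genes (24 genes), 132% for cAMP-induced genes (18), 200% for chemokines and cytokines (17), 119% for cholesterol genes (20), 105% for the Wnt pathway (23), 64.0% for Notch and Hedgehog (12) and 58.0% for interferon-stimulated genes (23). Glucocorticoid-induced genes, at a median of 470% over 16 genes, held the member CCDC69. It had 9.77, 12.2 and 11.2 FPKM at 0 d, 1.11, 0.47 and 0.92 FPKM at 3 d, 5.04, 5.41 and 6.12 FPKM at 6 d and 9.16, 6.9 and 8.61 FPKM at 9 d. Solute carriers and ion channels, the largest list with 576 rows, held SLC6A9 (glycine transporter 1), SLC38A5 and SLC4A3. Of these SLC6A9 was the most abundant, with 340.2, 347 and 340.2 FPKM at 0 d, 23.2, 27.2 and 20.96 FPKM at 3 d, 294, 298 and 297 FPKM at 6 d and 190.2, 178 and 218 FPKM at 9 d.

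List medians are given here as log2 differences at 6 d and at 9 d against 0 d and at 9 d against 6 d, beside -0.15, -0.19 and -0.04 over all tested mRNAs. They were -0.18, 0.10 and 0.01 for matrix glycoproteins and proteoglycans, 0.12, 0.47 and 0.10 for fibrillar collagen genes, -0.27, -0.25 and 0.01 for integrins and adhesion, and -0.05, -0.05 and -0.19 for TGF-beta. They were -0.25, -0.64 and -0.02 for BMP genes, -0.29, 0.05 and 0.36 for growth factors such as PDGFC, -0.81, -0.53 and 0.39 for axon guidance, and -0.23, -0.79 and -0.41 for amino acid stress. For YAP and TEAD targets they were -0.50, -0.38 and -0.11, and for the cell cycle -0.07, -0.21 and -0.24. After rescaling the first median of the cell cycle was 0.10, the first of TGF-beta 0.10 and the third of BMP genes 0.01, so that each changed sign. Fibrillar collagen genes had 5 risen and none fallen at 6 d, 2 risen and 2 fallen at 9 d against 0 d (6 risen and none fallen after rescaling) and none risen and 1 fallen from 6 to 9 d, of 26 tested. The same shares over all tested mRNAs were 3.39% and 7.97% for 6 d against 0 d, 3.41% and 7.47% for 9 d against 0 d and 2.55% and 1.89% for 9 d against 6 d.

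Other lists with a member moved as follows, with genes risen and fallen at 6 d against 0 d, at 9 d against 0 d and at 9 d against 6 d. Over all tested mRNAs 3.39 and 7.97%, 3.41 and 7.47%, and 2.55 and 1.89% did so. Matrix proteases and their inhibitors (31 tested, TIMP3 the member) had 5 and 8, 6 and 7, and 2 and 2, with medians of -0.25, -0.06 and 0.09, the second of which was 0.15 after rescaling. Other collagens (23 tested, COL16A1 the member) had 2 and 4, 1 and 3, and 3 and 0, with medians of -0.29, -0.04 and 0.17, the second of which was 0.16 after rescaling. IGF and insulin signalling (19 tested, IGFBP6 the member) had 4 and 4, 4 and 2, and 0 and 2, with medians of -0.07, 0 and 0.04, the first of which was 0.10 after rescaling. Glucocorticoid-induced genes (23 tested, CCDC69 the member) had 15 and 0, 7 and 2, and 0 and 10, with medians of 1.4, 0.67 and -1.05. Solute carriers and ion channels (336 tested, SLC4A3 the only member called) had 16 and 53, 11 and 52, and 7 and 14, with medians of -0.25, -0.30 and -0.02, the third of which was 0.01 after rescaling.

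Lists with no member gave the following in the same order, with the same shares over all tested mRNAs (3.39 and 7.97%, 3.41 and 7.47%, 2.55 and 1.89%). Adipocyte genes such as FABP4 and ADIPOQ (35 tested) had 10 and 1, 9 and 3 (10 and 1 after rescaling), and 3 and 2 risen and fallen, with medians of 0.72, 0.45 and -0.15. Wnt pathway genes (31 tested) had 4 and 6, 5 and 7 (5 and 4 after rescaling), and 3 and 5, with medians of -0.27, -0.54 and -0.14, and Notch and Hedgehog genes (17 tested) 1 and 4, 0 and 5, and 0 and 2, with medians of -0.58, -0.37 and 0.01. Genes induced by cAMP (24 tested) had 2 and 3, 3 and 0, and 7 and 2, with medians of -0.09, 0.55 and 0.60, the first of which was 0.08 after rescaling, when 6 rose and none fell at 9 d against 0 d. Chemokines and cytokines such as CXCL8 (31 tested) had 7 and 7, 9 and 2, and 13 and 3, with medians of 0.39, 0.60 and 0.73. Interferon-stimulated genes such as MX1 (30 tested) had 0 and 13, 0 and 6, and 4 and 0, with medians of -0.51, -0.57 and 0.19, and cholesterol genes (21 tested) 1 and 0, 0 and 1, and 0 and 4, with medians of 0.36, -0.21 and -0.44. None of these shares was tested against the background.

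The comparisons among 0, 6 and 9 d take values that the rule bounds from below, so that genes still low at 6 d or at 9 d are not members. The rule treats these 3 days alike, and the results describe differences among genes that were back at both 6 and 9 d as the rule defines it. The mean at 6 d lay between 50 and 200% of that at 0 d in 75 members, under 50% in 26 and over 200% in 8. WISP2, POSTN, CSPG4 and CYP3A4 had the largest falls, to 11.9, 20.4, 23.4 and 24.5% of the 0 d mean, and ACTG2, CNN1, GPR65 and MXRA5 the largest rises, to 737, 402, 318 and 319%. In the limma fit 33 of 109 members were called (30.3%), beside 11.4% of all 15401 tested mRNAs and 7.49% of the 6556 mRNAs with at least 5 FPKM in the 9 libraries. Of these, 8 rose (background 3.39% and 2.44%) and 25 fell (7.97% and 5.05%). The median log2 difference was -0.33 over members and -0.15 over all tested mRNAs. The difference between these shares was not tested.

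At 9 d the counts were near those at 6 d, and the difference between the 2 days was not tested. The mean lay between 50 and 200% of that at 0 d in 79 members, under 50% in 19 and over 200% in 11. P2RX7, TRIB3, TYRO3 and GNAT1 had the lowest levels, at 24.3, 27.3, 29.5 and 31.9% of the 0 d mean, and MXRA5, PRSS23, RGS3 and IER3 the highest, at 350, 287, 287 and 286%. Called were 30 of 109 (27.5%), beside 10.9% of all tested mRNAs and 7.29% of those with at least 5 FPKM in the 9 libraries. Of these, 11 rose (background 3.41% and 2.58%) and 19 fell (7.47% and 4.71%). The median log2 difference was -0.08 over members and -0.19 over all tested mRNAs. Leaving out a library moved the median over members to between -0.08 and -0.22, and without replicate 2 of 0 d it was -0.18, as over all mRNAs (-0.18). This comparison shares its 0 d libraries with that of 6 d, so the 2 sets of calls are not independent.

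Between 6 and 9 d, 17 of 109 members were called (15.6%), beside 4.43% of all tested mRNAs and 2.82% of those with at least 5 FPKM in the 9 libraries. Of these, 10 rose (background 2.55% and 1.68%) and 7 fell (1.89% and 1.14%). CYP3A4, WISP2, CCND1 and S100A4 had the largest rises and ACTG2, CNN1, P2RX7 and TAGLN the largest falls. The median log2 difference was 0.18 over members and -0.04 over all tested mRNAs.

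A common scale matters for these counts. Dividing each library by its median ratio to the mean library moved the median of all mRNAs by 0.16 at 6 d and 0.19 at 9 d against 0 d. The calls over all mRNAs went from 522 higher and 1227 lower to 647 and 938 at 6 d, and from 525 and 1150 to 686 and 781 at 9 d. The share called higher among all calls thus went from 29.8 to 40.8% at 6 d and from 31.3 to 46.8% at 9 d. Members called became 9 higher and 23 lower at 6 d and 12 higher and 15 lower at 9 d, and the median over members at 9 d changed sign, from -0.08 to 0.12.

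**Figure D3:**
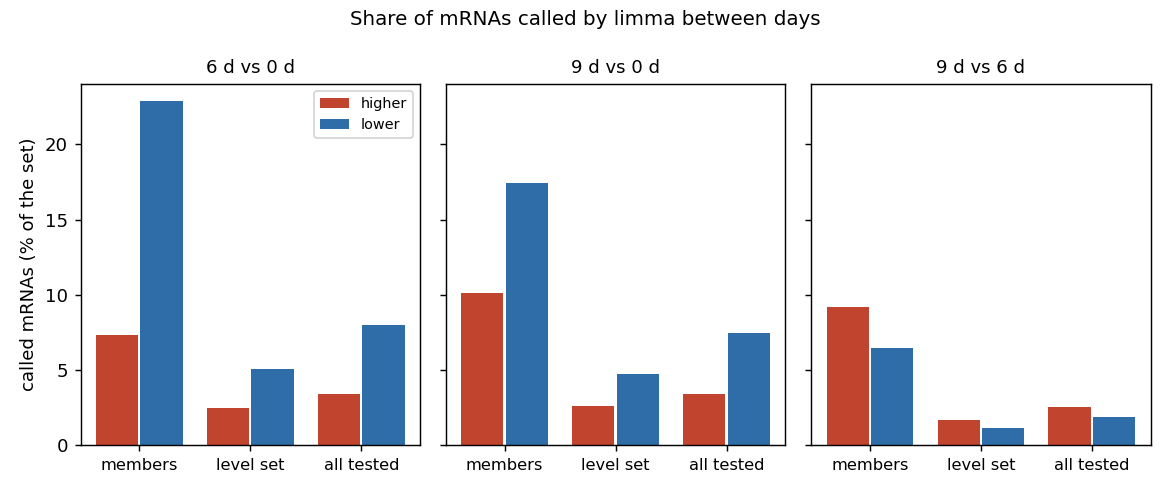
Percent of mRNAs called higher (red) and lower (blue) by limma in each comparison, for the 109 members, for the 6556 mRNAs with at least 5 FPKM in the 9 libraries of 0, 6 and 9 d (level set) and for all 15401 tested. At 6 d against 0 d, 22.9% of members were called lower and 7.34% higher.

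Put together by member, 58 of 109 (53.2%) were called in none of these comparisons, beside 83.4% of all tested mRNAs and 88.7% of the 6556. Shares in these 2 sets are given in this order in brackets, and no difference between shares was tested. Lower at both 6 and 9 d than at 0 d were 11 (CSPG4, GNAT1, MYH7, MYL2, NOV, NPR3, PLEKHA6, SEMA3C, SLC4A3, TIMP3 and TYRO3) [4.36 and 2.59%]. Lower at 6 d alone were 9 [2.42 and 1.69%], among them FBLN5, KIAA0040 and the type I receptor ACVRL1, and 5 more were lower at 6 d and rose from 6 to 9 d (CYP3A4, POSTN, S100A4, TBXA2R and WISP2) [0.909 and 0.595%]. A further 4 were higher at 6 d and fell after it (ACTG2, CNN1, LIPG and TAGLN) [0.591 and 0.427%]. Higher at 9 d than at both 0 and 6 d were 4 (CCND1, IER3, PDGFC and TMEM119) [0.727 and 0.503%], and lower than at both were 3 (ACTA2, P2RX7 and the membrane protein NIPAL4) [0.578 and 0.290%]. Against 0 d, 5 were higher at 9 d alone (HS3ST2, ITGA11, PRSS23, RHBDL2 and VEGFC) [0.818 and 0.747%] and 5 lower (ARSI, LOXL4, RFLNB, TGM2 and TRIB3) [2.25 and 1.66%]. MXRA5 and RGS3 were higher at 6 and 9 d [1.4 and 1.14%], GPR65 and TNFSF4 at 6 d alone [0.935 and 0.686%], and BHLHE40 rose from 6 to 9 d with no call against 0 d [0.487 and 0.351%]. Of the 80 calls, 13 in 11 members were lost under at least 1 alternative and none changed sign. Besides those given with their genes, NIPAL4 at 9 d against 0 d was -0.84 after rescaling, -0.98 with a pseudocount of 1 and -0.90 without replicate 2 of 9 d. TMEM119 at 9 d against 0 d was 0.96 with a pseudocount of 1 and 0.96 without replicate 2 of 0 d.

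**Figure D4:**
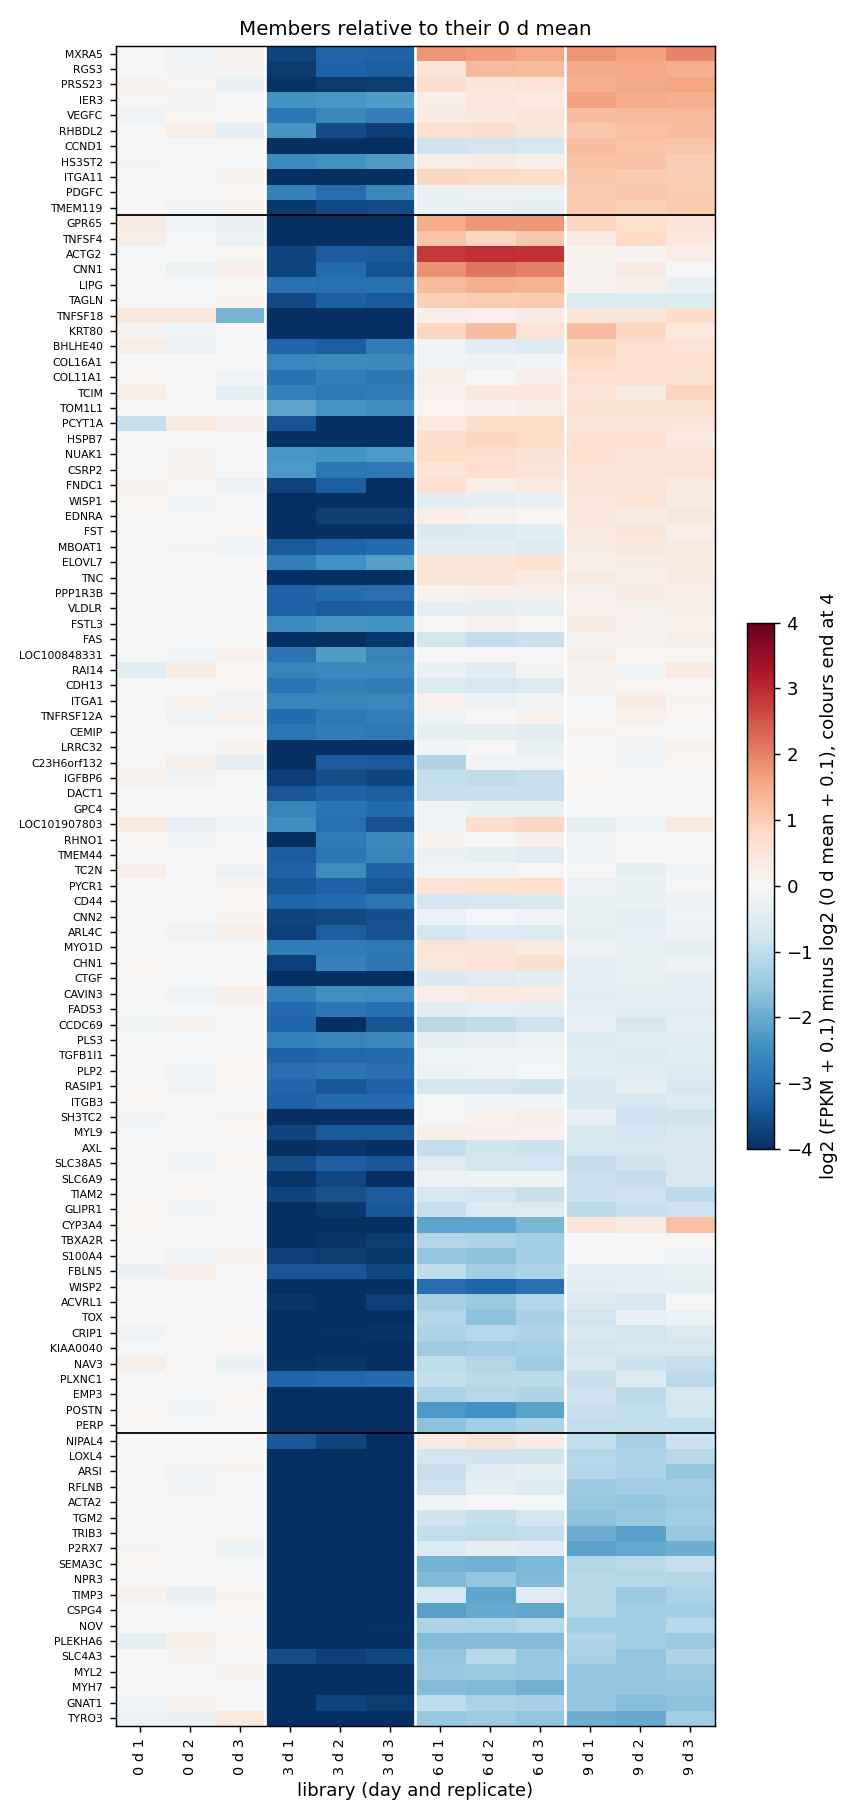
Each row is a member and each column a library. Colour gives log2 (FPKM + 0.1) minus log2 (0 d mean + 0.1), with colours ending at 4 in either direction. Black lines part members called higher at 9 d than at 0 d (11, top), not called (79) and called lower (19, bottom), and the 3 d columns are blue in every row.

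The highest day mean was that of 0 d in 52 members, of 6 d in 22 members and of 9 d in 35 members. As shares, 47.7, 20.2 and 32.1% of members peaked at 0, 6 and 9 d, beside 53.5, 25.9 and 20.6% of the 6556 mRNAs with at least 5 FPKM in the 9 libraries. Over those 6556 the median 3 d level was 92.3% of the 0 d level, against 7.81% over members, as the rule sets. At 6 and 9 d the medians were 91.9 and 89.1% over the 6556 and 79.2 and 94.1% over members. In the contrasts the rule used, calls are fixed by it and only the background is of use. At 3 d against 0 d 109 of 109 members were called lower, beside 23.3% of all tested mRNAs called (8.06% higher, 15.2% lower) and 20.3% of the 6556 (5.32% higher, 15% lower). At 6 d against 3 d 109 of 109 were called higher, beside 19.1% (9.85% higher, 9.23% lower) and 16.6% (10.9% higher, 5.69% lower). At 9 d against 3 d 109 of 109 were called higher, beside 20.5% (10.2% higher, 10.3% lower) and 17.5% (11.1% higher, 6.42% lower).

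Rows that fell and stayed low were counted by a rule unlike that of the members. Their lowest 0 d value had to be at least 5 FPKM and at least 4 times the highest of all later libraries. These rows numbered 24. Relative to 0 d their median level was 6.27% on day 3, 10.1% on day 6 and 13.1% on day 9. GREM1 and ITGA4, low at 6 d and back at 9 d, are in neither set. The 24 and the 109 members thus give no share of genes that came back. Of all tested mRNAs, 4.36% were called lower than at 0 d at both 6 and 9 d. This share is of those not called between 6 and 9 d. The mirror image, at least 5 FPKM and at least 4 times higher at 3 d than in each library of the other days, held 65 rows with a median of 68.8 FPKM at 3 d against 3.31, 6.48 and 6.65 FPKM at 0, 6 and 9 d. Of 7035 lncRNA rows, 6 met the rule of the members, out of 136 with at least 5 FPKM in the 9 libraries.

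Circular RNAs, joined from back-spliced exons and counted by reads over the junction, gave a further readout for 37 members. These are matched by the host gene that the circRNA table names. They hosted 176 of 14070 circRNA rows with 2855 junction reads (879, 442, 545 and 989 by day). The reads over all circRNA rows were 21816, 24067, 19650 and 30141 by day, or 5358 to 10729 per library. Since 3 d against the rest is the contrast of the rule, these are described with no test. CEMIP alone accounted for 2374 of the reads (83.2%), over 55 rows. The other 36 hosts had 481 reads (139, 69, 103 and 170 by day), and 28 had fewer than 10.

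As a share of junction reads, circular CEMIP was lower at 3 d by less than its mRNA was in FPKM. Per 10000 junction reads it had 352, 293 and 366 reads on day 0, 141, 159 and 163 reads on day 3, 216, 207 and 244 reads on day 6 and 249, 293 and 273 reads on day 9. The 3 d libraries were lowest and did not overlap with any other day. The day means with SD (n = 3) were 337 ± 38.7, 154 ± 11.7, 222 ± 19.3 and 272 ± 22.0. Relative to 0 d the circular RNA was at 45.8, 66.0 and 80.6% at 3, 6 and 9 d, and the mRNA at 13.9, 75.8 and 103%. The first percentages are of a share of junction reads and the second of FPKM, so they are not one measure. SEMA3C circles numbered 8, 18 and 15 reads on day 0, 16, 14 and 11 reads on day 3, 6, 7 and 9 reads on day 6 and 6, 11 and 16 reads on day 9. Their 3 d counts lay within the 0 d range while the mRNA was at 5.86% of its 0 d mean. TNC circles gave 20, 1, 32 and 56 reads on the 4 days, low at 3 d as its mRNA was.

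**Figure D5:**
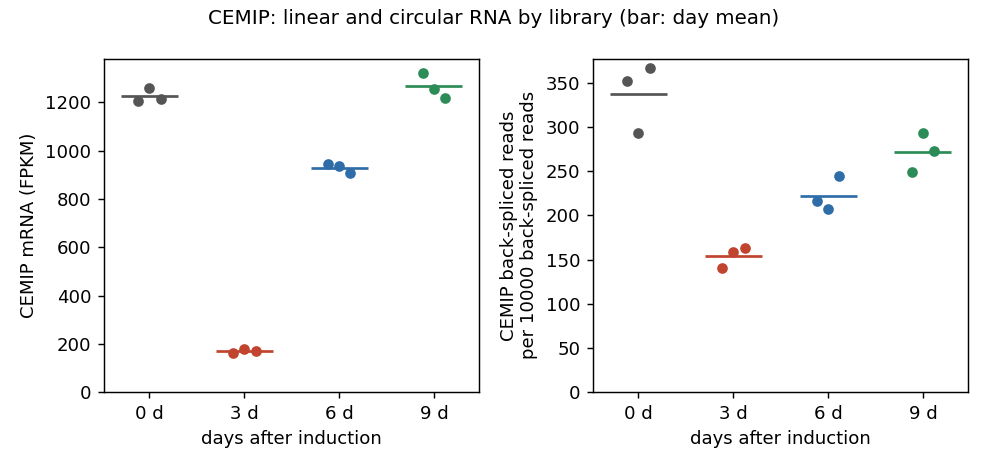
CEMIP mRNA (FPKM, left) and CEMIP back-spliced reads per 10000 back-spliced reads of the library (right) by day after induction. Points are libraries and bars the mean of 3, and the 3 d means are 13.9% of 0 d for the mRNA and 45.8% for the circular RNA.

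In the genome the members were spread out. Of the 109, 106 could be placed by symbol on the RefSeq annotation of ARS-UCD2.0, on 28 chromosomes with at most 10 on any one. Direct neighbours were TC2N with FBLN5 and ACTA2 with FAS. With one protein-coding gene between them were TNFSF18 with TNFSF4 and CSRP2 with NAV3. The genes of a pair share the 3 d low, as the rule requires. ACTA2 fell at 9 d against 0 d while FAS was not called (0.16 on the log2 scale), and NAV3 fell at 6 d (-1.19) while CSRP2 was not called (0.57). These differences between neighbours were not tested.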

How the data were processed

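RNA of 12 libraries (0, 3, 6 and 9 d, 3 a day) was used, grouped by the day in the sample labels. For mRNAs and lncRNAs the deposited values are FPKM, made by the authors with HISAT2 2.0 and StringTie 1.3.0 per the labels. For circRNAs the deposited values are counts of junction reads that the authors called. The labels name Bowtie 0.12.2 and a mouse build (mm8) and poly(A) selection, whereas the paper names a bovine build, other tool versions and rRNA depletion, and the difference could not be settled here. Of the columns of values per sample, 36 were used and 36 were not used here (12 of scaled circRNA signal, 24 of miRNAs).

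The limma package (3.58.1, R 4.3.3) fitted log2(FPKM + 0.1) with a mean for each day over all 12 libraries, and its eBayes step used a trend but no robust option, for 15401 mRNAs with a mean FPKM of at least 0.1. All 109 members passed that filter. Called means an absolute log2 difference over 1 and a Benjamini-Hochberg adjusted p under 0.05 over all tested mRNAs of the comparison, and p-values are two-sided. The fit was tested on simulated data, of which no result is given here. Tables and figures used Python 3.11.15, NumPy 2.4.6, pandas 2.3.3, SciPy 1.17.1 and Matplotlib 3.10.9. FPKM give no read counts for a gene, so the precision of a value was judged only from the spread of 3 libraries, and circRNA counts carry counting error besides.

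Members named in full are the 12 with the largest ratio, the 10 with the highest mean, the 4 called members with the largest change in each direction of each comparison, the members of 25 gene lists and the rows nearest each threshold, and any others named were chosen after their values were seen. The 8 marker lists are of cell types. The members and lists were chosen with earlier results of these data known. Comparison sets were the 6556 mRNAs with at least 5 FPKM in the 9 libraries of 0, 6 and 9 d, lasting losses and rows high at 3 d alone. Alternatives were pseudocounts of 1 and 0.01, no filter, a mean of at least 1 FPKM, libraries rescaled by their median ratio, a fit to only the 6 libraries of a comparison, replicate number as a block, leaving out each library, and other thresholds of the rule.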

Additional observations from a re-analysis of the deposited data

How the results depend on the processing

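The number of members was 330 with a ratio of at least 2, 34 with at least 8 and 189 with day means in place of single libraries, which follows from the thresholds. It was 160 with at least 1 FPKM, 87 with at least 10 FPKM and 116 after rescaling (105 of them among the 109), and 110 to 121 without any one library. Members called at 6 d against 0 d numbered 30 to 33 over the alternatives, at 9 d against 0 d 27 to 31 and between 6 and 9 d 16 to 18. Of 80 calls of members none was reversed, and 13 calls in 11 members (LOXL4, NIPAL4, NPR3, PLXNC1, RGS3, SEMA3C, TAGLN, TIMP3, TMEM119, TNFSF4 and WISP2) were lost under some alternative. With a pseudocount of 1, all mRNAs called went from 1749 to 967 at 6 d against 0 d, from 1675 to 888 at 9 d against 0 d and from 683 to 368 at 9 d against 6 d. After rescaling, list counts at 9 d against 0 d went from 8 to 3 lower for amino acid stress, from 3 to 6 higher for TGF-beta and for cAMP-induced genes, from 2 to 6 higher for fibrillar collagen, from 11 to 18 higher for solute carriers, from 13 to 8 lower for matrix glycoproteins, from 7 to 4 lower for the Wnt pathway and from 3 to 1 lower for adipocyte genes. Other list counts that moved over 1.5 times were of 2 genes or fewer. The members' median log2 difference at 9 d against 0 d went from -0.08 to -0.13 without replicate 3 of 0 d, -0.18 without replicate 2 of 0 d and -0.22 without replicate 3 of 9 d.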
